A study of Mus musculus with 3 samples.

Results

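The genes described here are the 8 constant genes of the immunoglobulin heavy chain, Ighm, Ighd, Ighg3, Ighg1, Ighg2b, Ighg2c, Ighe and Igha, with the kappa light chain constant gene Igkc and the joining chain gene Jchain. They were taken by symbol, and all 10 were found among 52636 gene identifiers in the count tables. All 10 passed the filter on low counts, as did 16548 genes in all. The samples are normal thymi of the control group of a study on T cell lymphomas that lack Cic, the gene of the transcriptional repressor capicua. The labels give the strain C57BL/6, the genotype Cic flox/flox and treatment with tamoxifen (TAM) for all 3 samples. The labels name no Cre driver, age, or animal per library, and the lymphomas are not analysed here. With a single group there is no contrast between conditions, so the values below are levels and the spread between 3 thymi, numbered here by their labelled replicate. Nothing ties a library to an animal, so p-values describe the spread of these samples, part of which can be technical.

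An antibody consists of heavy and light chains, each with a variable part that binds antigen and a constant part encoded by the genes described here. Every B cell starts with Ighm and Ighd, which are made from a shared primary transcript by alternative splicing and polyadenylation. Class switch recombination then joins the same variable part to a constant gene further along the locus, and so changes the isotype to IgG, IgE or IgA. Plasma cells secrete antibody, and the J chain links IgM and IgA units into polymers that the polymeric immunoglobulin receptor can carry across epithelia. The thymus holds a small resident population of B cells beside the developing T cells. A constant gene can also be transcribed from an unrearranged locus, and gene counts do not tell such germline transcripts from those of a finished antibody.

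The heavy chain genes lie on the minus strand of chromosome 12 (GRCm38), in the order Ighm (113418558 to 113422730), Ighd (113406604 to 113416324), Ighg3 (113356224 to 113361232), Ighg1 (113325240 to 113330523), Ighg2b (113302965 to 113307933), Ighg2c (113285325 to 113288932), Ighe (113269260 to 113273248) and Igha (113254830 to 113260236). Igkc lies on the plus strand of chromosome 6 (70726435 to 70726966) and Jchain on the minus strand of chromosome 5 (88519809 to 88527891). None of the 10 shares an exon base with another annotated gene.

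The ends of the secreted heavy chains show which isotypes can take up the J chain. Secreted IgM and IgA end in a tailpiece whose cysteine, the residue before the last, bonds to the J chain. The last 60 coding bases of the secreted transcripts, stop codon included, are given 5′ to 3′ on the coding strand from the GENCODE M21 transcripts, with the codon before the last in capitals.
Ighm, chr12:113420867-113420926, minus strand: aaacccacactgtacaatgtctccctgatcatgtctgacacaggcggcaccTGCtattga
Igha, chr12:113258768-113258827, minus strand: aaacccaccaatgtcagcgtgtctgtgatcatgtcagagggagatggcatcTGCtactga
Ighg2b, chr12:113306389-113306448, minus strand: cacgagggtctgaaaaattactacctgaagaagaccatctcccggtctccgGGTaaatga
Ighe, chr12:113271273-113271332, minus strand: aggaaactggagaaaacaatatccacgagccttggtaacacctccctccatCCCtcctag
The codon in capitals encodes cysteine in Ighm and Igha and another residue in the other 6 heavy chain genes, of which Ighg2b and Ighe are shown.

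The 4 IgG genes are close relatives, and a read that fits several of them equally well is not counted by STAR. The first 60 bases of their constant exons are shown because they let a reader judge how well the subclasses can be told apart. Capitals mark the positions at which the 4 are not all identical.
Ighg3, chr12:113361173-113361232, minus strand: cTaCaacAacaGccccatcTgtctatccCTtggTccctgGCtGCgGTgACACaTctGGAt
Ighg1, chr12:113330464-113330523, minus strand: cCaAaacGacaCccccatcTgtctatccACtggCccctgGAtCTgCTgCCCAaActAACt
Ighg2b, chr12:113307874-113307933, minus strand: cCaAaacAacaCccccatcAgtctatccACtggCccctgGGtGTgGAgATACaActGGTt
Ighg2c, chr12:113288873-113288932, minus strand: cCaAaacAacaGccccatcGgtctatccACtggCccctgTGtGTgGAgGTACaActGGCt
In this stretch 38 positions were identical in the 4 genes and 22 were not. Over whole transcripts, Ighg2b shared 4.15% and Ighg2c 5.49% of their 50-base stretches with transcripts of other genes, chiefly with each other. The figure was 1.58% for Ighg3, 0.39% for Ighg1, 0.29% for Jchain and 0.00% for Ighm, Ighd, Ighe, Igha and Igkc. Levels of Ighg2b and Ighg2c are therefore slightly uncertain against each other.

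The libraries held 30414788, 28587087 and 25408442 reads that STAR assigned to genes in the reverse-strand column. Expression is given in CPM, counts relative to a common library size set by TMM, with SDs over the 3 libraries, and 3 counts, the limit used for detection, lay between 0.0986 and 0.122 CPM. The labelled tissue was checked against its markers: all 8 thymocyte and all 6 thymic epithelium markers exceeded 10 CPM in every library. The members took 0.299%, 0.286% and 0.301% of the assigned reads. Multimapping reads (14.0% to 15.5% of all) and ambiguous reads (1.05% to 1.10%) were not counted, and the latter would include reads that span a variable and a constant gene.

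Ighm, which encodes the mu chain of IgM, had the most reads of the 10 genes. It stood at 1225, 1222 and 1197 CPM in thymus 1, 2 and 3 (1215 ± 15.3, SD, n = 3), rank 41 of the 16548 genes. The highest value was 1.02 times the lowest, and no other member differed less with this scaling. With library totals in place of TMM, Ighm stood at 1215 ± 47.7 and Igkc at 921 ± 15.7 CPM, so which of them is steadier depends on the scaling. Igkc, the constant part of kappa light chains, had 922, 880 and 963 CPM (922 ± 41.4), with thymus 3 highest and thymus 2 lowest. Within each library there were 0.753, 0.720 and 0.804 Igkc reads per Ighm read.

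Ighd, the gene of the IgD heavy chain carried by naive B cells beside IgM, was far lower. It had 9.93, 10.8 and 5.76 CPM, so thymus 3 was lowest, and 0.00811, 0.00887 and 0.00481 reads per Ighm read.

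Of the IgG genes, Ighg2b and Ighg2c held nearly all reads. Ighg2b was at 176, 186 and 207 CPM (190 ± 16.01), highest in thymus 3. Ighg2c, the form of the IgG2a/c locus that C57BL/6 mice carry, was at 78.6, 96.6 and 84.2 CPM (86.5 ± 9.21), highest in thymus 2. Together they made up most of the IgG counts, 65.4 ± 2.72% for Ighg2b and 29.8 ± 2.57% for Ighg2c. Ighg3 had 8.55, 9.24 and 6.13 CPM, lowest in thymus 3 like Ighd. Ighg1, in mice the subclass typical of responses with interleukin-4, had 8.45, 3.38 and 5.60 CPM, and thymus 1 exceeded thymus 2 by 2.503 times. Ighg1 and Ighg3 made up 2.03 ± 0.998% and 2.77 ± 0.645% of the IgG counts.

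Igha, the gene of the IgA heavy chain, reached 193, 138 and 178 CPM (170 ± 28.7), lowest in thymus 2. Ighe, the gene of the IgE heavy chain, was the lowest member, with 15, 60 and 35 counts or 0.493, 2.05 and 1.42 CPM. All 3 libraries lay above the 3-count limit.

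Jchain, which encodes the linker of polymeric IgM and IgA, was at 370, 243 and 453 CPM (355 ± 106), rank 408 by CPM. Thymus 3 was highest and thymus 2 lowest, the same lowest library as for Igha, Igkc and Ighg1. Reads of Jchain per read of Ighm and Igha together numbered 0.261, 0.178 and 0.330.

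**Figure D1:**
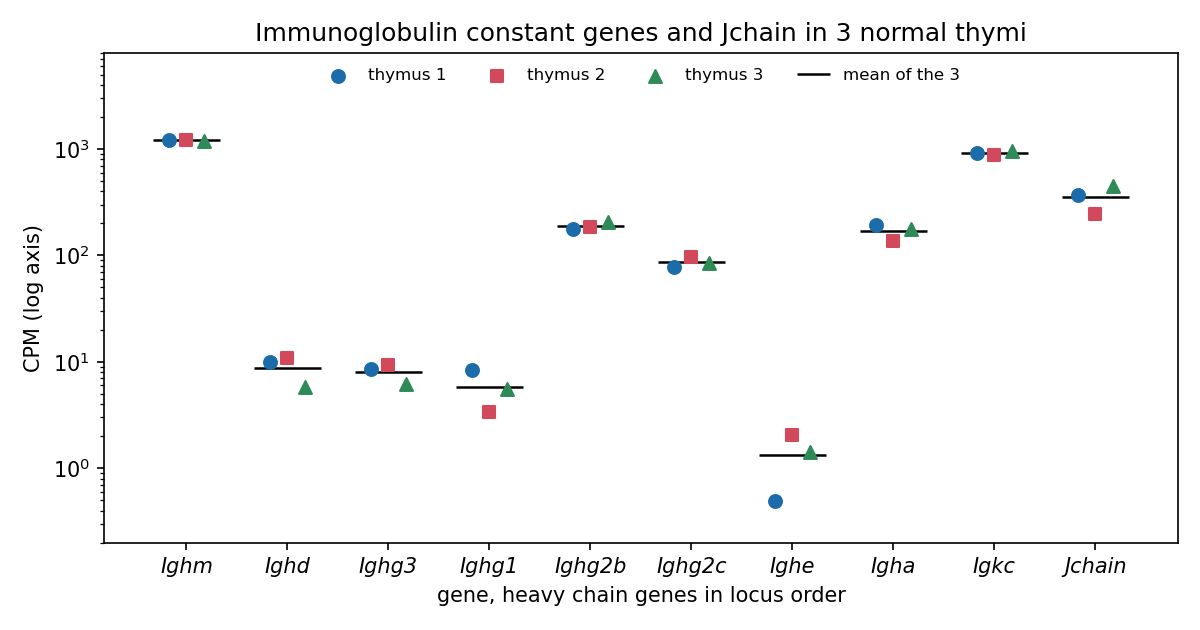
CPM (log axis) of the 10 genes in each thymus, with heavy chain genes in the order of the locus; points are libraries and bars are the mean of the 3. Ighm and Igkc lie at 880 to 1225 with points almost on top of each other, Jchain at 243 to 453, and Ighe lowest at 0.493 to 2.05.

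Because a longer transcript gathers more reads, genes were compared with each other per kilobase, on all annotated exon bases and on the shortest coding transcript, which for heavy chains is the secreted form. The second scale was added after the data were seen. On the exon scale Igkc led with 1732 ± 77.9 CPM per kilobase (rank 8 of all genes tested), followed by Ighm with 644 ± 8.13 (rank 38) and Jchain with 141 ± 42.2 (rank 245). Igkc exceeded Ighm in each library on both scales, by 2.69 ± 0.151 times per kilobase of exon and 2.13 ± 0.119 times per kilobase of the shortest coding transcript.

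Ighg2b (70.9 ± 5.98), Ighg2c (65.2 ± 6.95) and Igha (63.7 ± 10.8 CPM per kilobase of exon) could not be ranked, since their ranges over the libraries overlapped. On the shortest coding transcript Ighg2b (170 ± 14.4) and Igha (154 ± 26.1) stood above Ighg2c (77.9 ± 8.29 CPM per kilobase), so this part of the order depends on the length used. Jchain then stood at 255 ± 76.2, and its range overlapped that of Ighg2b. Ighd (4.65 ± 1.43), Ighg3 (3.17 ± 0.651), Ighg1 (2.24 ± 0.981) and Ighe (0.833 ± 0.493 CPM per kilobase of exon) formed the low end, and the ranges of Ighd, Ighg3 and Ighg1 overlapped in every pair.

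**Figure D2:**
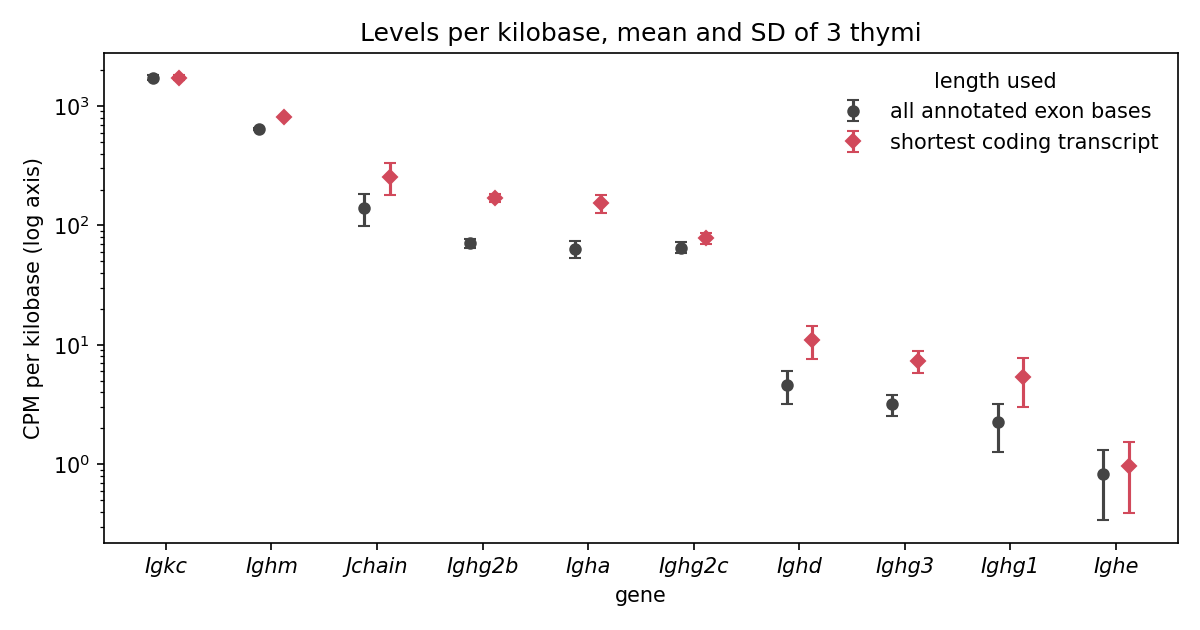
CPM per kilobase (log axis) of each gene, mean and SD of 3 thymi, with length taken as all annotated exon bases (circles) or the shortest coding transcript (diamonds). Igkc and Ighm lead on both, and Igha separates from Ighg2c only on the second.

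A share within a library does not depend on how libraries are scaled. The heavy chain constant genes together had 51716, 48940 and 41552 counts, or 1700, 1669 and 1686 CPM with TMM scaling. Ighm made up 72.05%, 73.3% and 71.0% of them (exact binomial 95% intervals 71.7 to 72.4, 72.9 to 73.6 and 70.6 to 71.4, which cover counting error only). Counts of the 6 genes downstream of Ighd, those reached by class switching, were 27.4%, 26.1% and 28.7%. IgG made up 15.97%, 17.7% and 18.0%, and Igha 11.4%, 8.26% and 10.6%.

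Ighd was 0.584%, 0.650% and 0.342% of the heavy chain counts, and its interval in thymus 3 (0.288 to 0.403) lay below those of thymus 1 (0.520 to 0.653) and 2 (0.581 to 0.725). Ighg1 was 0.497%, 0.202% and 0.332%, with intervals that did not overlap in any pair of thymi, as was also the case for Ighm, Ighg2b and Igha. Ighe was 0.0290%, 0.123% and 0.0842%, with thymus 1 below both others. The smallest p that an exact two-sided sign-flip test can give with 3 libraries is 0.25, so shares and ratios are given without a test.

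**Figure D3:**
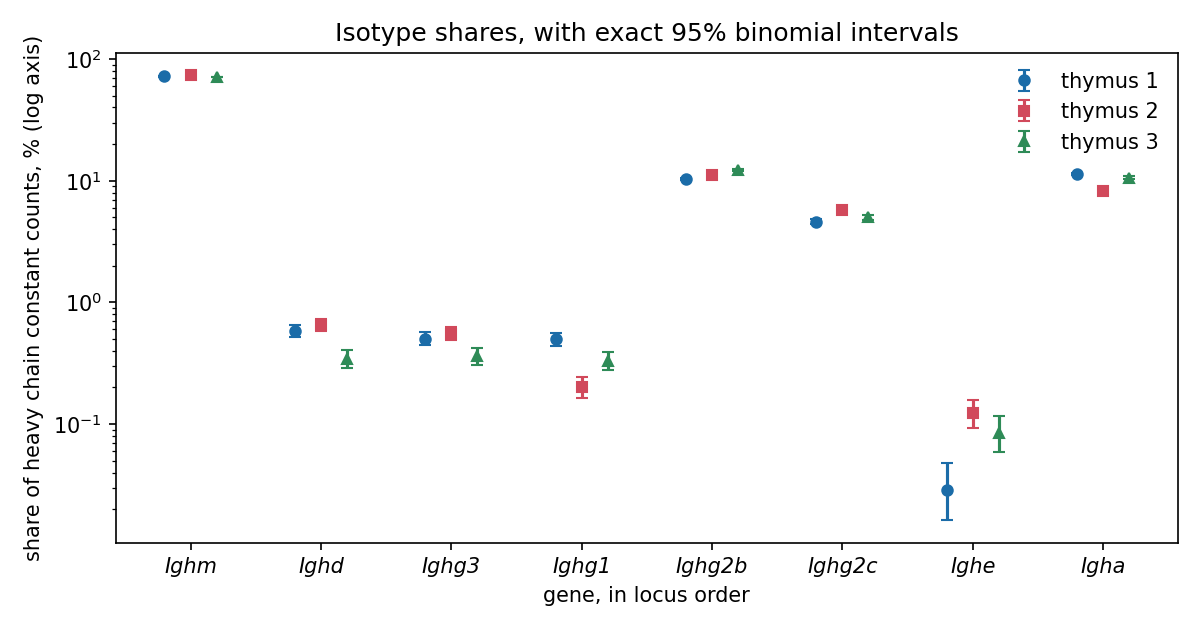
Share of each heavy chain constant gene in the summed heavy chain constant counts of a library, in percent on a log axis, with exact 95% binomial intervals. Ighm lies at 71.0% to 73.3% in all 3 thymi, and Ighe spans the widest range relative to its level, from 0.0290% to 0.123%.

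The next question was whether thymi differed in these genes by more than in others. Counting noise alone was tested with the Poisson goodness of fit in edgeR, which 10 of 10 members exceeded, against 43.4% of all genes tested (Benjamini-Hochberg 0.05). These figures are not matched for abundance, and the test detects smaller differences in genes with more reads. All 8 thymocyte markers were called too, at a median coefficient of variation of 5.43%. For Ighm the Poisson call was marginal, with an adjusted p of 0.0168, and it was lost without thymus 1 (adjusted p = 0.0926) or thymus 3 (0.881). It also depended on scaling, with an edgeR adjusted p of 0.0979 with DESeq2 size factors, where 9 of 10 members were called, and 3.82e-21 with library totals. Others lost this call with 1 library left out: Ighe without thymus 1 (edgeR adjusted p = 0.168), Ighg2c without thymus 2 (0.0832), and Ighd (0.498) and Ighg3 (0.594) without thymus 3. The median coefficient of variation of the members was 18.7%, against 9.06% over all genes tested, and ran from 1.26% for Ighm and 4.50% for Igkc to 43.8% for Ighg1 and 59.2% for Ighe. Ighe, Ighg1, Ighg3 and Ighd had 15 to 318 counts per library, and counting error is largest for such genes.

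Against the trend for genes of like abundance (edgeR quasi-likelihood, one-sided, Benjamini-Hochberg 0.05), 0 of 10 members were called, where 0.0604% of all genes were. At an unadjusted p under 0.05 there were 5 of 10, against 4.42% of all genes: Jchain, Ighg1, Ighe, Ighd and Igha. Jchain came nearest, with an unadjusted p of 0.00328 and an adjusted p of 0.734. The negative binomial goodness of fit called Jchain and Ighe (0.737% of all genes), and DESeq2's dispersion check called Jchain (0.489% of all genes).

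Without thymus 3 the edgeR quasi-likelihood test called 4 members, Ighg1, Ighe, Igha and Jchain, the last with an adjusted p of 0.00053, and 0.812% of all genes. Without thymus 1 it called 0 members and 0.151% of all genes, and without thymus 2 it called 0 and 0.139%. Jchain then had edgeR adjusted p-values of 0.404 and 0.984. With no filter on low counts 0.924% of all genes were called, Jchain, Ighg1 and Ighe among them, with adjusted p-values of 4.37e-06, 0.00931 and 0.0189. The call of Jchain thus depends on the tool and on which libraries enter.

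**Figure D4:**
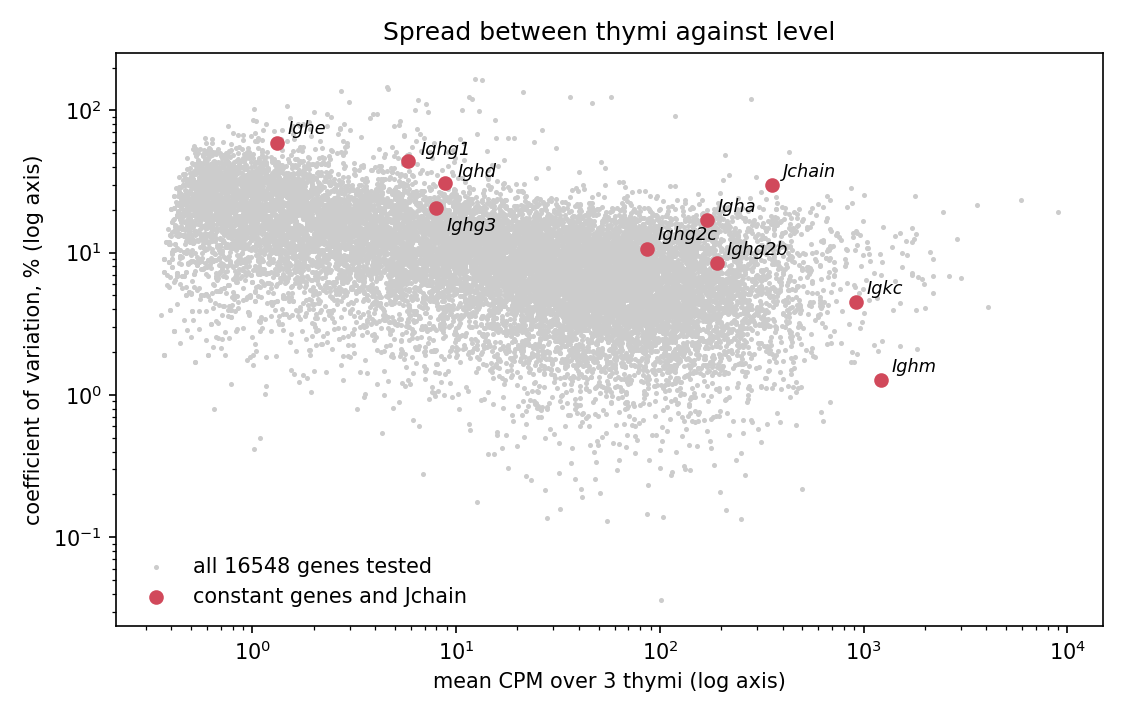
Coefficient of variation over 3 thymi (percent, log axis) against mean CPM (log axis) for all 16548 genes tested (grey) and the 10 members (red). With TMM scaling Ighm lies at 1.26% and Jchain at 29.9%.

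The members had no common order of libraries. Among all genes tested, 24.3%, 36% and 39.7% were lowest in thymus 1, 2 and 3, and of the members 3, 4 and 3 were. Ighd and Ighg3 were lowest in thymus 3, with log2 deviations from their mean of −0.56 and −0.35. Ighm was also lowest there, at −0.02. Jchain, Igha, Igkc and Ighg1 were lowest in thymus 2, at −0.50, −0.29, −0.07 and −0.68. Ighg2b, Ighg2c and Ighe were lowest in thymus 1.

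Transcripts of Jchain had a GC content of 38.6%, against 47.1% to 53.4% for the other members, and the libraries differ in a trend with GC content. The log2 difference between thymus 3 and thymus 2 was 0.90 for Jchain as measured and 0.605 with that trend removed. For Igha the highest and lowest thymus differed by 0.49, and by 0.54 with the trend removed.

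**Figure D5:**
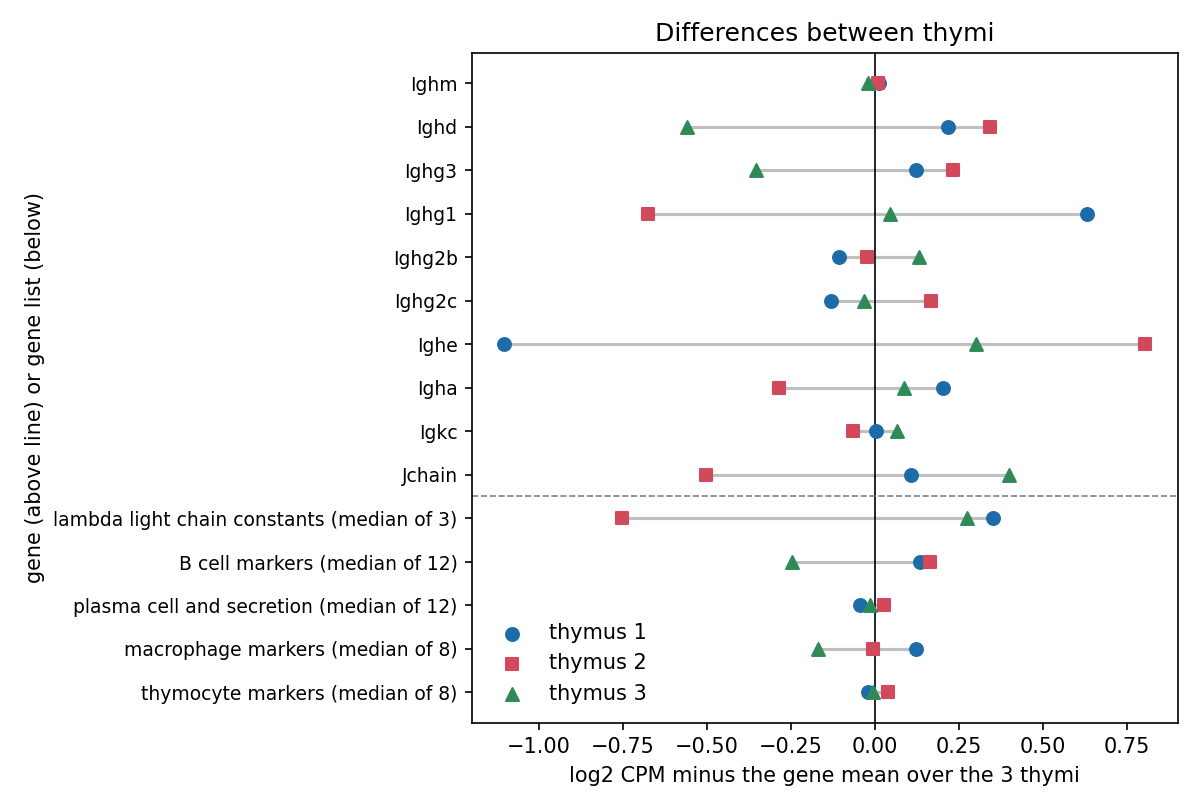
Log2 CPM minus the gene mean over the 3 thymi for each member (above the dashed line) and the median of this measure for 5 gene lists (below it). With TMM scaling Ighm stays within 0.02 of its mean. Jchain and the median of the lambda constants are lowest in thymus 2, although Iglc1 was highest there. Ighd, Ighg3 and the median of the B cell markers are lowest in thymus 3.

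B cell surface and transcription factor genes give the context for these levels. All 12 B cell markers were detected in every library, led by Cd79b, a signalling subunit of the B cell receptor (26.2 ± 3.004 CPM), Ms4a1, which encodes CD20 (24.7 ± 3.44), and the transcription factor gene Spib (21.3 ± 4.28). Summed, they stood at 172, 173 and 129 CPM, and 11 of 12 were lowest in thymus 3, against 39.7% of all genes. In a bulk sample fewer cells of a type and less RNA per cell cannot be told apart. By the edgeR quasi-likelihood test 0 of 12 were called and 2 had an unadjusted p under 0.05, and the negative binomial and DESeq2 checks called 0. The 8 macrophage markers, led by C1qc, C1qb and C1qa, summed to 509, 462 and 423 CPM and were likewise all lowest in thymus 3. Of these, Adgre1 did not exceed counting noise (edgeR Poisson goodness of fit, adjusted p = 0.34). The quasi-likelihood test called 0 of the 8, and 2 had an unadjusted p under 0.05. The negative binomial and DESeq2 checks each called 1.

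Ratios of the members to the B cell marker sum restate the CPM values above, since that sum was itself lowest in thymus 3. Ighg3 and Ighd were lowest in thymus 3 like that sum, so the division narrows their spread. Counts of Ighg3 per B cell marker count had a coefficient of variation of 6.20%, against 20.5% for its CPM, and for Ighd the figures were 17.1% and 30.6%. For Ighm the order was opposite: it had 7.10, 7.07 and 9.25 counts per B cell marker count, a variation of 15.97% against 1.26% in CPM. As the CPM of Ighm hardly differed, this is the spread of the B cell marker sum. Jchain also spread more on this scale, at 2.15, 1.40 and 3.50, or 45.2% against 29.9%. So did Igkc (21.6% against 4.50%), Ighg2b (26.0% against 8.43%), Ighg2c (17.5% against 10.7%) and Igha (26.5% against 16.9%). Ighg1 (41.9% against 43.8%) and Ighe (57.9% against 59.2%) spread slightly less. Whether the lower B cell marker level of thymus 3 has a part in the values of Ighd and Ighg3 was not tested.

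As a sum or median, the plasma cell and secretion list differed less between thymi than Jchain, but opposite orders of single genes cancel there. The genes of the list had a median coefficient of variation of 8.1%, against 29.9% for Jchain. Eaf2, named for the widest spread in the list, reached 24.0%. The list's 12 genes summed to 391, 405 and 411 CPM, and their median deviation was −0.04, 0.03 and −0.02 in log2. It was led by Xbp1, the transcription factor gene of the secretory programme (186, 178 and 207 CPM), the disulfide isomerase gene Txndc5 (63.5 ± 3.33) and Tnfrsf13b, which encodes the receptor TACI (49.2 ± 3.51). Other cells express Xbp1 and Txndc5 too. Mzb1, a chaperone gene of antibody-secreting cells, and Prdm1, the gene of Blimp-1, were chosen after their values were seen. Mzb1 had 15.8, 15 and 17.7 CPM and Prdm1 4.14, 3.92 and 3.85. By library, 6 of the 12 genes were lowest in thymus 1, 2 in thymus 2 and 4 in thymus 3. Among all genes tested the shares were 24.3%, 36% and 39.7%. Only the 2 lowest in thymus 2, Xbp1 and Mzb1, shared the order of Jchain, thymus 3, 1, 2, with smaller differences. Mzb1 did not exceed counting noise (edgeR Poisson goodness of fit, adjusted p = 0.101), so its order is uncertain. How many of all genes have this order was not determined. There were 23.5, 16.2 and 25.7 Jchain reads per Mzb1 read. Of the 12 genes 0 were called by edgeR's quasi-likelihood test, 0 had an unadjusted p under 0.05, and 0 were called by the negative binomial goodness of fit or DESeq2.

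Lambda constant genes, which encode the constant part of lambda light chains, came in far below Igkc. Iglc1 was at 33.5, 39.7 and 30.1 CPM, Iglc2 at 70.1, 29.8 and 60.6 and Iglc3 at 33.7, 15.4 and 35.3. Iglc4 had 3, 2 and 1 counts, at or below the detection limit. Thymus 2 was lowest for Iglc2 and Iglc3, as for Jchain, and highest for Iglc1. Of the 50-base stretches of Iglc2 7.65%, and of those of Iglc3 22.3%, occur in transcripts of other genes, each other among them. The edgeR quasi-likelihood test called 0 of the 3 tested, with adjusted p-values of 0.306 for Iglc2 and 0.42 for Iglc3, and 2 had an unadjusted p under 0.05. The negative binomial goodness of fit and DESeq2 each called 2. There were 6.72, 10.4 and 7.64 Igkc reads per lambda constant read.

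Of the genes whose products process DNA during class switching, the uracil glycosylase gene Ung stood at 13.5 ± 1.09, the mismatch repair gene Msh6 at 249 ± 12.8, the exonuclease gene Exo1 at 28.6 ± 1.62 and the endonuclease gene Apex2 at 23.1 ± 0.350 CPM. Genes that govern end joining at the breaks were Trp53bp1 (68.0 ± 1.34), Rif1 (184 ± 28.2) and Mad2l2 (12.2 ± 1.76). All of these repair genes act in DNA repair of dividing cells in general. Of the 9 genes of this list 0 were called by edgeR's quasi-likelihood test, the negative binomial goodness of fit or DESeq2, and 1, Rif1, had an unadjusted p under 0.05.

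The surrogate light chain pairs with the mu chain in pre-B cells. Apart from Dntt, the genes of the surrogate light chain and pre-B list were low. Vpreb1 stood at 1.73 ± 0.116 CPM, Vpreb2 had 2, 0 and 4 counts, Vpreb3 4, 5 and 6, and Igll1 8, 9 and 17. On the opposite strand Vpreb3 had more, 14, 10 and 13 counts. Dntt, the terminal transferase gene that also marks developing T cells, was at 1721 ± 204 CPM. Of the 14 genes of immunoglobulin receptors, 5 exceeded 10 CPM in every library, led by the cytosolic antibody receptor gene Trim21 (76.8 ± 4.2), the inhibitory Fc receptor gene Fcgr2b (25.4 ± 4.33) and Fcer1g, the shared signalling chain of Fc receptors (24.9 ± 2.71). Pigr, the transport receptor for J chain polymers, chosen after its value was seen, stood at 4.93 ± 0.798 CPM. In this list 11 of 14 were lowest in thymus 3, against 39.7% of all genes tested, including 3 genes below 1 CPM in every library. Macrophage and most B cell markers were also lowest there, and their part in this was not tested. Of the 11 receptor genes that passed the filter, edgeR's quasi-likelihood test called 0, and 3 had an unadjusted p under 0.05. The negative binomial goodness of fit and DESeq2 each called 1.

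Plasmacytoid dendritic cells were included as another cell type that may hold J chain transcripts. Their 8 markers were led by Ccr9, Ly6d and Bst2 at 1543 ± 155, 450 ± 66.7 and 83.5 ± 7.28 CPM, genes that thymocytes or other cells express too. Of the 8 markers 4 were lowest in thymus 2, against 36% of all genes tested. Of these, 3, Bst2, Tcf4 and Klk1, had the order of Jchain, thymus 3, 1, 2. The share of all genes with that order was not determined. Tcf4 did not exceed counting noise (edgeR Poisson goodness of fit, adjusted p = 0.52). Siglech, a more restricted marker, had 17.5, 14.7 and 11.2 CPM. Tcf4, Klk1 and Siglech were named after their values were seen, and the part of such cells in the level of Jchain was not tested. Erythroid genes, which differ strongly between these thymi, summed to 1025, 47.1 and 224 CPM. They were highest in thymus 1 and lowest in thymus 2, the order of Igha, Ighg1 and Iglc2, while Jchain shared the lowest library only. Their part in those values was not tested.

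The pattern over 3 libraries is too short to single out partners of a gene. Among 9836 genes of at least 10 CPM, those nearest to Jchain by Euclidean distance of log2 deviations were Gm26551, Cacybp, Ahsa2, Hspa4l and Chordc1, at distances of 0.0674 to 0.114. The nearest other member was Igha at 0.392, and 593 genes lay as near or nearer. For Ighm the nearest were Hars, Fbxo28, Mcu, D10Jhu81e and Ppp1ca, at 0.00222 to 0.00276, and 3996 genes lay at least as near as Igkc, the nearest member, at 0.114.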

How the data were processed

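The authors deposited raw read counts per gene, 1 table per library, in the layout of STAR gene counting, with columns for both strands, the gene's strand and the reverse strand. Per the labels the libraries were made with a stranded mRNA kit, so the reverse-strand column was used. The submitters' processing notes name STAR 2.5.3a and GRCm38. The annotation release is not given in the sources used here. Of 52636 identifiers, 52489 matched GENCODE M21 and 147 did not. Summary lines entered no library size.

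Counts were filtered (minimum 10, total 15) and scaled by TMM in edgeR 4.0.16 (R 4.3.3), and log2 CPM used a prior count of 2. An intercept-only quasi-likelihood fit on all genes compared each gene's quasi-dispersion with the trended prior (F test, 5.24 prior degrees of freedom, Benjamini-Hochberg 0.05). It was tested on simulated data. Alternatives included DESeq2 1.42.0. GC trends were removed by lowess (span 0.3). Sharing was measured on 50-base stretches of transcripts.

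The members, the 12 lists and the tests were chosen with earlier results of these data known. The text names all members, the 3 most abundant genes of the B cell, plasma cell, macrophage, plasmacytoid dendritic cell and immunoglobulin receptor lists, and the lambda, class switch and surrogate light chain genes, except some class switch genes that are not reported here. The thymocyte, thymic epithelium and erythroid lists are given by counts or sums. Likeness took the 5 nearest genes. Binomial intervals (95%) cover counting error only, as reads carry no molecular identifiers.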

Additional observations from a re-analysis of the deposited data

Results flagged for a closer look

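Reads on the strand opposite to the gene, in the column that no level above uses, exceeded 3 counts in every library for 3 members. Summed over the 3 thymi they numbered 33 for Ighm, 37 for Igkc and 18 for Jchain. These are 0.0321%, 0.0477% and 0.0609% of the stranded reads of those genes, against 3.40% over all genes. For Ighd, Ighg1, Ighg3 and Ighe the sums were 2, 3, 1 and 1, and for Ighg2b, Ighg2c and Igha 6, 6 and 7.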

How the results depend on the processing

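The count of members more variable than the abundance trend, 0 of 10 by edgeR's quasi-likelihood test, was 3 with no filter on low counts, 1 as dispersion outliers of DESeq2, 2 by goodness of fit to a negative binomial and 0 to 4 with 1 thymus left out. It was 0 with library totals, with size factors from DESeq2, with unstranded counts, with a mean of at least 5 CPM (which removes Ighe) and with a prior that is not robust. Over all genes the count of 10 became 20 with library totals, 285 with no filter, 81 by DESeq2, 122 by the negative binomial check and 23 to 137 with 1 thymus left out. Members beyond counting noise, 10 of 10, numbered 9 with DESeq2 size factors, 9 with a mean of at least 5 CPM and 7 to 9 with 1 thymus left out. Genes beyond counting noise numbered 7188, and 3768 to 6579 with 1 thymus left out. The share of Ighm in heavy chain counts, 72.1%, was 75.35% per kilobase of exon and 65.6% per kilobase of the shortest coding transcript. The ratio of Igkc to Ighm, 0.759, was 2.69 and 2.13 on those scales. Apart from length scaling, 3 of 100 recomputed levels, shares and ratios moved by over 1 SD, all of them levels of Ighm, between 1194 and 1241 CPM. The SD was that of the same quantity over the 3 libraries, so a wide spread hides a shift. Ighe went from 1.32 to 0.943 CPM without thymus 2 and was not counted as moved. Leaving out 1 of 3 libraries cannot move a share or ratio by 1 SD, so this count is no measure of stability. Where the cause of a change was not the length or the number of genes or libraries, the cause was not tested. Depth limits Ighe, Iglc4, Vpreb2 and Vpreb3. No paired analysis was possible because all 3 libraries belong to 1 group.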

Other observations

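Constant genes can be set beside the variable genes of the same locus. On chromosome 12 the 113 heavy chain variable genes summed to 177, 164 and 175 CPM, and the 8 constant genes to 1700, 1669 and 1686. On chromosome 6 the 102 kappa variable genes summed to 387, 343 and 420 CPM, against 922, 880 and 963 for Igkc. On chromosome 16 the 3 lambda variable genes summed to 74.3, 36 and 64.3 CPM, and the 4 lambda constant genes to 137, 84.9 and 126. All 3 variable sums were lowest in thymus 2, as were Jchain and Igha. Variable genes have many near-identical copies, whose multimapping reads are not counted, so these sums are not on a scale of molecules.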
